A study of Arabidopsis thaliana with 4 samples.

Results

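Of the 22810 probe sets on the ATH1 array, which the annotation ties to 13286 named genes, 4 report on the seed cupin genes PAP85 (AT3G22640, probe set 258327_at), AT4G36700 (246273_at), AT2G28490 (264079_at) and AT1G07750 (261415_at), with 1 probe set for each gene. They were chosen by gene, with their values in flc-3 and in the wild type already known, so their levels and differences between the genotypes are given as a description, with no test. PAP85 is the only one of the 4 with a gene symbol in the gene table used here. The other genes carry only a locus name there, and their place among the cupins rests on general knowledge of the family.

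The study compared 2 genotypes of Arabidopsis thaliana seedlings, both in Col-0, with 2 arrays each. The mutant is labelled flc-3, a knockout of FLC (AT5G10140), the MADS-box repressor of flowering, and since its titles write fri in lower case, the labels leave its FRI allele unsettled. The wild type is labelled FRI; FLC. All seedlings grew on agar with 3% sucrose, for 6 days under constant light and for a further 4 days at 22 °C with light for 12 h of each day and darkness for 12 h. They then went into constant light at 27 °C. Each array carried RNA of whole seedlings pooled over 24, 30, 36 and 42 h after that transfer, so a value averages over a circadian cycle. How many plants entered a pool, and whether the replicates were grown separately, is not given in the labels. One general temperature entry reads 22 °C, and the treatment text is followed here. The series title names FLC targets at 27 °C as the question. FLC itself was not analysed here, because the annotation ties it to no probe set, so the genotype was not checked by its transcript.

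Cupins are proteins built on a small barrel-shaped fold that is shared by enzymes, germins and the globulin storage proteins of seeds. Vicilin-type and legumin-type globulins are made during seed maturation, are packed into protein storage vacuoles and are broken down after germination to feed the seedling. In Arabidopsis the most abundant legumin-type globulins are the cruciferins, and PAP85 is a vicilin. Maturation genes of this kind are switched on by a network of B3-domain, NF-Y and bZIP transcription factors together with abscisic acid, and are silenced in vegetative growth.

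The values are MAS5 signals on a linear scale in arbitrary units, and each array has the same trimmed mean of 100.01. The median signal lay between 47.12 and 48.44 on the 4 arrays. A control for 25S ribosomal RNA, left out of all tests, gave signals of 1426 and 45.67 in the flc-3 arrays 1 and 2, against 134.6 and 47.58 in the wild-type arrays 1 and 2. Detection calls were not used here, so which signals exceeded background is unknown. After the dimmest 40% were left out, 13648 probe sets were tested, and all 4 cupin probe sets were among them.

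The 4 cupin genes fell into an order of differences, with PAP85 furthest apart between the genotypes, then AT4G36700, then AT2G28490, while AT1G07750 stood at nearly the same level in both. PAP85, the vicilin, had signals of 633 and 483 in the flc-3 arrays, against 63.0 and 39.5 in the wild-type arrays. The lower flc-3 signal was 7.67 times the higher wild-type signal. The log2 difference, taken on log2(signal + 1) and read as flc-3 minus wild type, was 3.44 ± 0.20 (moderated SE, n = 2 arrays per genotype), or 10.9-fold. This was the largest positive difference among the 13648 tested probe sets. The rank of PAP85 within each array shows the same separation: its signal stood at the 96.3rd and 94.6th percentile of all non-control probe sets in flc-3, and at the 57.5th and 45.5th percentile in the wild type. In the wild type it was therefore a middling signal, near the median of the array.

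AT4G36700, a vicilin-like gene, had signals of 297 and 249 in flc-3, against 54.8 and 48.0 in the wild type. Both flc-3 arrays lay well above both wild-type arrays, by 4.55 times at the closest. Its log2 difference was 2.38 ± 0.13 (SE), or 5.22-fold, the 15th largest positive difference of all tested probe sets. As for PAP85, its wild-type signals lay near the middle of the array, at the 53.9th and 50.4th percentile, and its flc-3 signals at the 90.3rd and 88.3rd.

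AT2G28490, also vicilin-like, had signals of 825 and 858 in flc-3, against 436 and 304 in the wild type. Unlike the 2 genes above, it already stood among the brighter probe sets in the wild type, at the 93.9th and 90.6th percentile, and at the 97.6th and 97.5th in flc-3. Its log2 difference was 1.21 ± 0.16 (SE), or 2.31-fold, which ranked 103rd. The closest pair of arrays was 1.89 times apart.

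AT1G07750 had signals of 279 and 295 in flc-3, against 278 and 262 in the wild type. The lower flc-3 signal was only 1.00 times the higher wild-type signal, so the genotypes barely separated. The log2 difference was 0.09 ± 0.10 (SE), or 1.06-fold, which ranked 4135th. Its signal sat between the 88.9th and 90.3rd percentile on all 4 arrays.

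**Figure D1:**
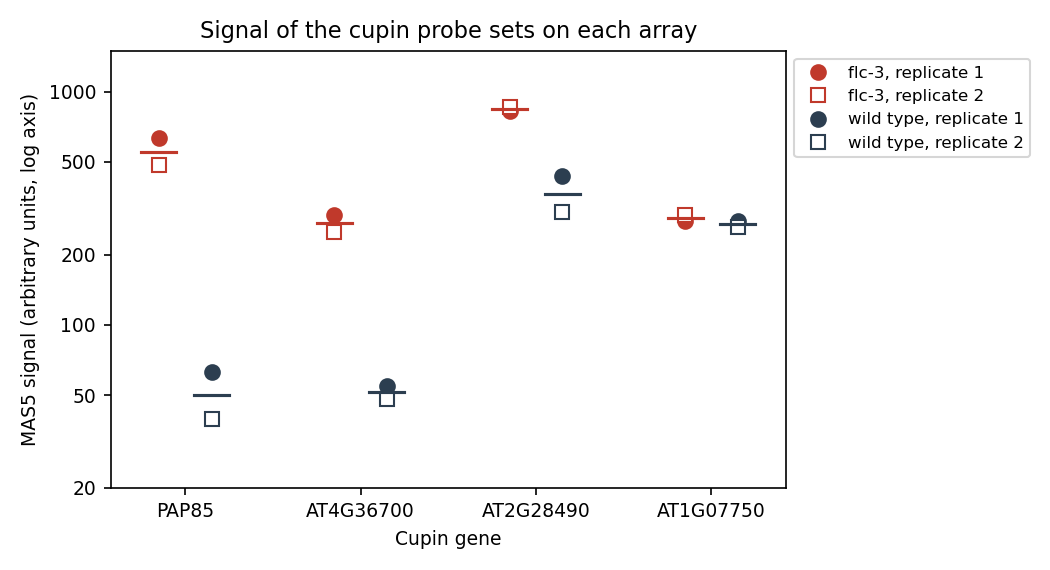
MAS5 signal in arbitrary units on a log axis for the 4 cupin genes, with flc-3 arrays in red and wild-type arrays in dark blue, replicate 1 as filled circles, replicate 2 as open squares, and a line at the geometric mean of signal + 1, less 1. PAP85 and AT4G36700 lie at 249 to 633 in flc-3 and at 39.5 to 63.0 in the wild type, AT2G28490 is about 2.31-fold apart, and the 4 signals of AT1G07750 lie between 262 and 295.

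Of the 4 probe sets, 3 were called higher in flc-3 by limma at a Benjamini-Hochberg adjusted p under 0.05, as were 1.37% of all tested probe sets (187 of 13648), while 43 (0.315%) were called lower, which makes 1.69% called in either direction. In all 4 cupin genes both flc-3 signals lay above both wild-type signals, which was so for 20.1% of the tested probe sets. With no filter on dim signals the call of AT2G28490 was lost, and 2 of the 4 were called. The genes were chosen with this contrast known, so nothing is read from either count. Over all tested probe sets the median log2 difference was -0.01, with a 5th percentile of -0.34 and a 95th of 0.37. In these whole seedlings, more cells with a transcript and more RNA in each such cell cannot be told apart.

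The spread between arrays of 1 genotype, which the choice of genes did not use, differed among the cupins. PAP85 was higher in replicate 1 than in replicate 2 in both genotypes, by 0.39 on the log2 scale in flc-3 and by 0.66 in the wild type. These differences lay at the 96.0th and 98.7th percentile of the replicate differences of all tested probe sets. AT2G28490 showed a gap of 0.52 in the wild type, at the 97.0th percentile, but one of -0.06 in flc-3, where its replicates were nearly level. For AT4G36700 the gaps were 0.25 in flc-3 and 0.19 in the wild type, at the 88.6th and 79.3rd percentile. AT1G07750 had the smallest replicate gaps in the wild type, with 0.08 there and -0.08 in flc-3. Over all tested probe sets the median replicate difference was 0.01 in flc-3 and -0.01 in the wild type, with 95th percentiles of 0.36 and 0.44. For PAP85, AT4G36700 and AT2G28490 the difference between the genotypes was larger than either replicate gap, and for AT1G07750 all 3 were of like size.

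**Figure D2:**
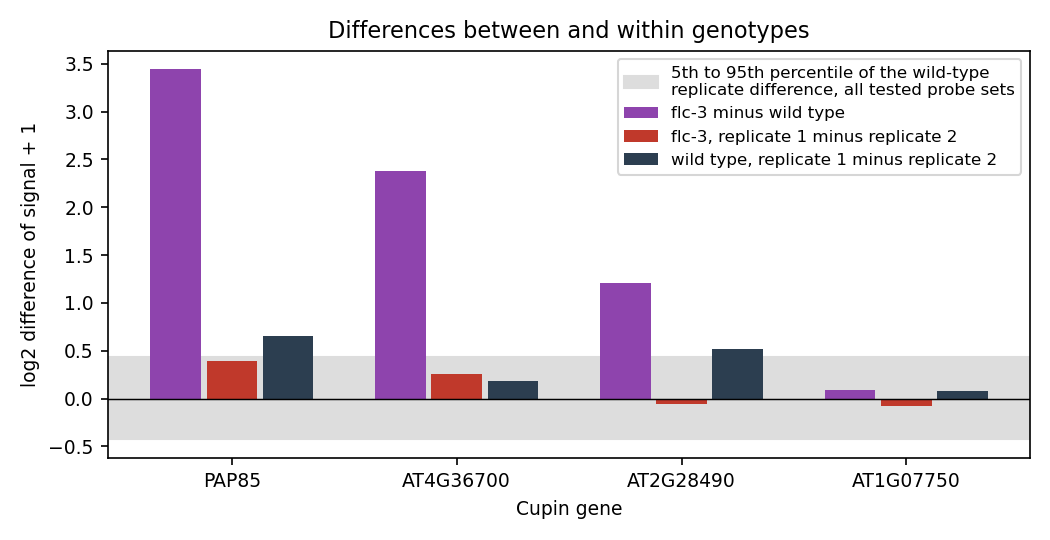
Log2 differences of signal + 1 for the 4 cupin genes: between genotypes (flc-3 minus wild type, purple) and between replicate 1 and replicate 2 within flc-3 (red) and within the wild type (dark blue). The grey band spans the 5th to 95th percentile of the wild-type replicate difference over all tested probe sets; PAP85 (0.66) and AT2G28490 (0.52) lie above it in the wild type, and all bars of AT1G07750 lie inside it.

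Since both genotypes had a brighter replicate for PAP85, its difference was also taken without each array in turn. It was 3.25 without flc-3 replicate 1, the array with the high 25S ribosomal RNA reading, and 3.64 without flc-3 replicate 2. Without wild type replicate 1 it was 3.77, and without wild type replicate 2 it was 3.11. The difference of AT2G28490 depended most on the wild-type arrays, with 1.47 without wild type replicate 1 and 0.95 without wild type replicate 2. AT4G36700 ranged from 2.26 to 2.51 and AT1G07750 from 0.04 to 0.13 over the same 4 cases.

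Other members of the cupin superfamily were then examined. The words cupin, germin, vicilin, cruciferin and globulin in gene names and synonyms led to 1 tested probe set, that of PGL34, whose plastoglobulin is no cupin, with a log2 difference of -0.20 (limma adjusted p = 0.624). A list of 33 germin-like genes, whose products are cell wall cupins, was therefore written from general knowledge after the values had been seen. Of these, 13 had a named probe set, 10 of them lay below the filter on dim probe sets, and 3 were tested. None of the 3 passed in limma, either at an adjusted p of 0.05 or at an unadjusted p of 0.05. AT1G18980 had signals of 398 and 363 in flc-3, against 422 and 390 in the wild type (log2 difference -0.09). AT3G10080 had 118 and 121 in flc-3, against 128 and 109 in the wild type (0.02, or -0.10 without wild type replicate 2). AT5G38910 had 61.7 and 54.0 in flc-3, against 150 and 51.7 in the wild type. For this last gene 1 wild-type array set the value: the log2 difference was -0.60 ± 0.37 (SE), 0.16 without wild type replicate 1, and -1.37 without wild type replicate 2, where it passed (limma adjusted p = 0.0024).

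The remaining seed globulin genes could not be followed. AT1G03890, listed as a cruciferin gene, AT2G18540, listed as vicilin-like, and AT2G28680, a further cupin gene, all lay below the filter and were not tested. AT2G18540 read 13.3 and 19.4 in flc-3, against 9.97 and 9.87 in the wild type. AT2G28680 read 5.96 and 3.44 in flc-3, against 1.16 and 2.90 in the wild type. For AT1G03890 the signals were 2.64 and 11.8 in flc-3, against 11.2 and 10.0 in the wild type. Signals this dim lie in the lowest part of the array, and no order between genotypes is read from them. CRA1, CRU2 and CRU3, the main cruciferin genes, and SESA1 to SESA5, the 2S albumin genes, are genes that the annotation ties to no probe set.

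Transcription factors that act on seed storage genes were covered by 2 of 12 listed genes. Of these 1 was called higher in flc-3, as were 1.37% of all tested probe sets (187 of 13648). EEL (AT2G41070), a bZIP factor of seed maturation that binds promoters of late embryogenesis genes, had signals of 81.0 and 55.9 in flc-3, against 27.0 and 16.4 in the wild type. It rose by 1.63 ± 0.26 (log2 difference and SE, adjusted p = 0.00983 in limma), a call that was lost with no filter on dim probe sets (adjusted p = 0.113). Both wild-type signals of EEL lay under the filter cutoff of about 30.8. It was thus tested only through its flc-3 signals, and nothing is read from its call. Without flc-3 replicate 1 it fell below the filter and was not tested. Like PAP85, EEL was higher in replicate 1 than in replicate 2, by 0.53 in flc-3 and 0.69 in the wild type. BZIP53 (AT3G62420), a bZIP factor that activates seed maturation genes, had 287 and 270 in flc-3, against 267 and 263 in the wild type (0.07, adjusted p = 0.837). LEC1, LEC2, FUS3, ABI3 and ABI5, the central regulators of seed maturation, have no named probe set here, nor does any of the 12 listed repressors of the seed programme, such as PKL, VAL1 and CLF.

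Storage globulins are sorted to the vacuole and cut there by vacuolar processing enzymes and aspartic proteases. Of 12 listed genes for this machinery 5 had no named probe set and 7 were tested. By the adjusted p of limma 2 of these rose and 0 fell, against 1.37% and 0.315% of all tested probe sets. In either direction 3 had an unadjusted p under 0.05, as had 12.1% of all tested probe sets (1646 of 13648). Their median log2 difference was 0.05, against -0.01 over all tested probe sets. AT1G62290, listed as an aspartic protease gene, had signals of 823 and 792 in flc-3, against 481 and 500 in the wild type, and rose by 0.72 ± 0.11 (SE, limma adjusted p = 0.008). The replicates of this gene lay close together in both genotypes. BETA-VPE (AT1G62710), the seed-type processing enzyme that matures storage proteins, had 479 and 459 in flc-3, against 336 and 266 in the wild type, and rose by 0.65 ± 0.13 (limma adjusted p = 0.0327). Its call was lost without flc-3 replicate 1 (adjusted p = 0.199), flc-3 replicate 2 (0.112) or wild type replicate 2 (0.0687), and under quantile normalization (0.0618), with no filter (0.143) or without the intensity trend (0.121).

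The other members of that enzyme family gave no call. ALPHA-VPE (AT2G25940), of vegetative organs, had 38.6 and 37.4 in flc-3, against 60.7 and 46.2 in the wild type (log2 difference -0.47, limma adjusted p = 0.33). DELTA-VPE (AT3G20210), known from the seed coat, had 122 and 128 in flc-3, against 99.1 and 112 in the wild type (0.25, adjusted p = 0.455). GAMMA-VPE (AT4G32940), another enzyme of vegetative tissue, had 425 and 500 in flc-3, against 454 and 464 in the wild type (0.01, which was -0.11 without flc-3 replicate 2). APA1, an aspartic protease gene, had a difference of -0.00, and of 0.11 without flc-3 replicate 1.

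**Figure D3:**
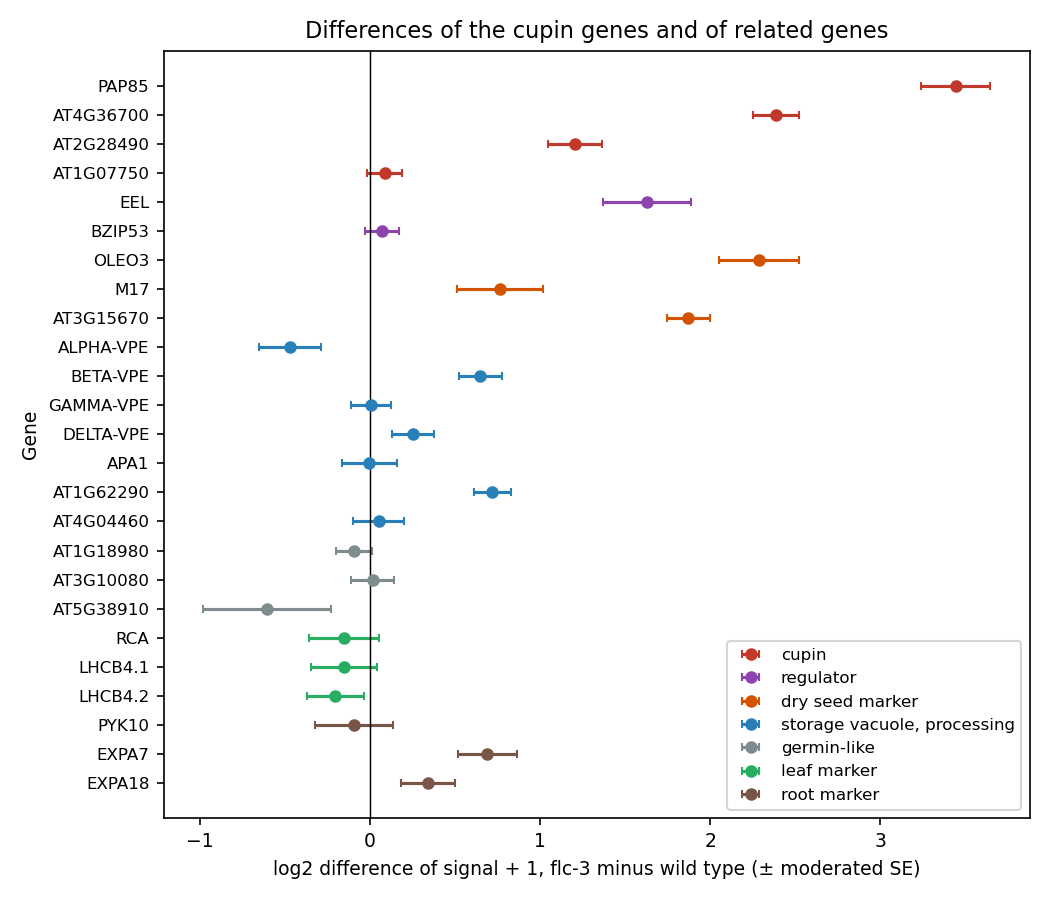
Log2 difference of signal + 1, flc-3 minus wild type, with the moderated SE as error bars (n = 2 arrays per genotype), for the 4 cupin genes and for the tested genes of 6 lists, coloured by list. PAP85 (3.44) and AT4G36700 (2.38) lie to the right of all others shown, with OLEO3 (2.29) next, BETA-VPE (0.65) and AT1G62290 (0.72) are the 2 called genes of storage protein processing, and the germin-like genes lie at or left of 0.02.

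Markers of dry seeds and embryos were set beside the cupins, and the few tested markers of leaf and root served only to describe the tissue. Of 11 listed dry seed and embryo markers 8 had no named probe set and 3 were tested. By the adjusted p of limma 2 of these were called higher in flc-3, as were 1.37% of all tested probe sets (187 of 13648). OLEO3 (AT5G51210), an oil body coat protein, had 124 and 75.8 in flc-3, against 17.2 and 21.2 in the wild type (log2 difference 2.29 ± 0.24, limma adjusted p = 0.000616). As for EEL, both its wild-type signals lay under the filter cutoff of about 30.8. OLEO3 was thus tested only through its flc-3 signals, and nothing is read from its call. AT3G15670, listed as a late embryogenesis abundant gene, had 1387 and 1443 in flc-3, against 420 and 355 in the wild type (1.87 ± 0.12, adjusted p = 4.21e-05). M17 (AT2G41260), a further gene of late embryogenesis, had 477 and 454 in flc-3, against 389 and 192 in the wild type, and did not pass (0.77 ± 0.25, adjusted p = 0.243), and its value turned on the wild-type arrays. Its difference was 1.27 without wild type replicate 1 (limma adjusted p = 0.000189) and 0.26 without wild type replicate 2 (limma adjusted p = 0.274). The summed signal of the 3 was 1988 and 1973 in flc-3, against 826.1 and 567.5 in the wild type, and none of the 3 was at 0. AT3G15670 was the largest part of this sum on each array. Without flc-3 replicate 1, OLEO3 fell below the filter and 1 of the 2 tested markers passed.

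Leaf transcripts were bright in every array, as a label of whole plants implies. Of 12 listed leaf markers 9 had no named probe set. The 3 tested, RCA, LHCB4.1 and LHCB4.2, had differences of -0.15, -0.15 and -0.20, and RCA had 0.07 without flc-3 replicate 1. Their summed signal was 6649 and 8173 in flc-3, against 8329 and 8226 in the wild type. Of 9 root markers 6 had no named probe set and 3 were tested. None of the 3 passed in limma, with 1 at an unadjusted p under 0.05, against 12.1% over all tested probe sets. PYK10, an endoplasmic reticulum body glucosidase of roots, had -0.09, and 0.14 without flc-3 replicate 1. The root hair expansin EXPA7 had 54.5 and 57.9 in flc-3, against 30.7 and 38.6 in the wild type (0.69, limma adjusted p = 0.115). EXPA18 had 63.2 and 76.5 in flc-3, against 57.2 and 52.2 in the wild type (0.34). In both expansin genes both flc-3 signals lay above both wild-type signals, as was so for 20.1% of all tested probe sets. The summed root signal was 2841 and 3899 in flc-3, against 3867 and 3182 in the wild type. PYK10 made up most of it on every array, with 2723 of the 2841 in flc-3 replicate 1. The summed dry seed markers, with AT3G15670 as the largest part, were thus higher in flc-3. That sum includes OLEO3, which was tested only through its flc-3 signals, so nothing about the cupins is read from the sum. The leaf sum was lower in both flc-3 arrays but only narrowly so in replicate 2. The root sums, mostly PYK10, overlapped, while the signals of EXPA7 and EXPA18 did not. The part of any difference in tissue or cell make-up in the cupin values was not tested.

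The 4 cupin genes lie on chromosomes 3, 4, 2 and 1, in the order in which they are named above, so they form no cluster. Among the 5 protein-coding genes on each side of each cupin gene, in TAIR10.1 gene order, 18 of 40 had a named probe set and 12 were tested with 13 probe sets. None of the 13 passed an adjusted p of 0.05 in limma, with 3 at an unadjusted p under 0.05 (12.1% over all tested probe sets), and their log2 differences ran from -0.18 to 0.47. Next to AT4G36700, ATU2AF65A, the adjacent gene for an RNA splicing factor, had 195 and 184 in flc-3, against 168 and 173 in the wild type (0.15). AT4G36750, 5 genes away from AT4G36700, had the largest neighbour difference, with 152 and 131 in flc-3, against 111 and 93.5 in the wild type (0.47, limma adjusted p = 0.175). Near PAP85, AT3G22660 had a difference of 0.44 (adjusted p = 0.386) and AT3G22620 one of 0.36 (adjusted p = 0.228). These neighbours were chosen by position, and the window was set after the cupin values were known.

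The genes whose profile over the 4 arrays was most like that of PAP85 were found by the Euclidean distance between log2(signal + 1) profiles, each centred on its own mean. Because PAP85 differs mainly between genotypes, any gene near it does too, so these are descriptions of 4 points and not tests. Among probe sets with a named locus the nearest was LEA (AT2G21490), a dehydrin, at a distance of 0.55. AT2G47780, a lipid droplet protein gene, followed at 0.58. The next were AT5G66780 at 0.67, AT5G44440, a berberine bridge enzyme-like gene, at 0.82, and AT1G15330 at 0.87. AT5G66780 had signals of 583 and 506 in flc-3, against 98.7 and 61.8 in the wild type. AT5G44440 differed from PAP85 in that its flc-3 replicates ran the other way, with 124 and 166 in flc-3, against 19.6 and 16.5 in the wild type.

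By this measure AT4G36700 was the closest of the other cupins to PAP85, 10th among the named probe sets at a distance of 1.11. AT2G28490 was 62nd, at 2.26, and AT1G07750 was 2031st, at 3.40. The distance follows the size of the difference as well as its shape, so AT2G28490 and AT1G07750 were distant because their profiles are flatter.

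**Figure D4:**
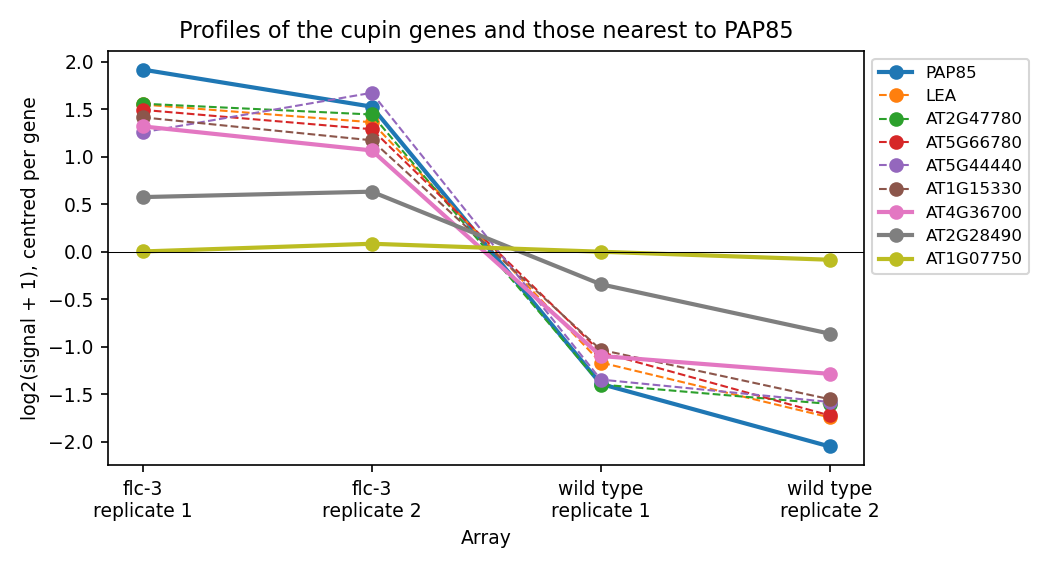
Log2(signal + 1) centred on each gene's own mean, for the 2 flc-3 arrays and then the 2 wild-type arrays; solid lines are the 4 cupin genes and dashed lines the 5 named genes nearest to PAP85. PAP85 runs between 1.92 in flc-3 replicate 1 and -2.05 in wild type replicate 2. The dashed lines and AT4G36700 separate the genotypes likewise, over a smaller range. Unlike PAP85, AT5G44440 is higher in flc-3 replicate 2 (1.67) than in flc-3 replicate 1 (1.26). AT2G28490 is flatter, and AT1G07750 stays within 0.09 of its mean.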

How the data were processed

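The deposited values are 1 signal intensity for each probe set and array, made by the authors with MAS5, as the submitters' processing notes name it without a version. Every array had a mean of 100.01 once the top and bottom 2% were trimmed, and this deposited scaling was kept. Of 22810 probe sets 64 controls were left out, and 59.1% of the others had 1 locus through the platform annotation and the TAIR10.1 gene table. No genome build comes with the values, hence no positions are printed. Signals were taken as log2(signal + 1), a scale that shrinks the changes of dim ones, and those whose mean log2 value fell short of the 40th percentile (a signal of about 30.8) were dropped. Genotype was the only term in limma 3.58.1 (R 4.3.3; lmFit, then eBayes allowing for an intensity trend; residual df 2, prior df 7.66), tested 2-sided over 13648 probe sets, with Benjamini-Hochberg adjustment and a threshold of 0.05. The step was also run on simulated data with known changes. These had independent errors drawn from the fitted model, so the run does not cover effects shared across an array. An exact permutation test of 2 arrays against 2 cannot go below p = 0.333. No label places the replicates in separate cultures, so the p-values reflect only array-to-array spread, possibly technical, and the number of arrays limits precision.

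The cupin genes, lists, tests and alternatives were chosen with earlier results of these data known. Genes named are the 4 cupins, called members of each list with up to 4 others in list order, the tested cupin relatives, and the 5 named probe sets nearest to PAP85; neighbours and the genes of the 2 later lists (germin-like and other seed globulin genes) were named after their values were seen. Alternatives were pseudocounts of 16 and 0.1, no filter and one at the 60th percentile, quantile, cyclic loess and median normalization, robust eBayes, eBayes without the trend, a block for the replicate number, and each array left out. A planned description of promoters and proteins was not run.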

Additional observations from a re-analysis of the deposited data

Results flagged for a closer look

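The 25S ribosomal RNA control probe set, which no comparison used, read 1426 in flc-3 replicate 1 and 45.67 in flc-3 replicate 2, against 134.6 and 47.58 in the wild-type replicates 1 and 2. It stands out because a control outside the comparison was far above the wild-type level in 1 array. PAP85 (633 and 483) and AT4G36700 (297 and 249) were also brighter in that array than in flc-3 replicate 2, whereas AT2G28490 (825 and 858) and AT1G07750 (279 and 295) were not. In the wild type the control was higher in replicate 1 too. There PAP85 (63.0 and 39.5), AT4G36700 (54.8 and 48.0), AT2G28490 (436 and 304) and AT1G07750 (278 and 262) were all brighter in replicate 1. The part of these control readings in the cupin values was not tested.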

How the results depend on the processing

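PAP85 and AT4G36700 were called higher in all 14 alternatives, AT2G28490 in 13 (not with the filter removed) and AT1G07750 in 0. The genes were chosen with this contrast known, so nothing is read from these calls. The folds of PAP85, AT4G36700, AT2G28490 and AT1G07750 ran from 8.59 to 13.7, 4.28 to 5.70, 1.93 to 2.76 and 1.03 to 1.09. The 1 cupin difference that moved by more than its replicate spread was that of AT4G36700, at 2.098 with a pseudocount of 16, which by construction shrinks dim signals. The 230 called probe sets (187 higher, 43 lower) became 121 (107 and 14) with no filter and 149 (118 higher) at the 60th percentile. Leaving out 1 array gave 147 to 364 in all, 121 to 290 higher and 24 to 74 lower. With the replicate block the counts were 769, 489 and 280. That fit had 1 residual degree of freedom and an infinite prior df, against 7.66 in the main fit. Its variances thus came wholly from the trend over all probe sets, and no probe set's own spread entered its p-values. The deviations of same-numbered arrays correlated at 0.09, and the labels give the arrays only a shared number, so this fit is no paired design. In it 1 germin-like gene, 1 root marker, 2 neighbouring probe sets and M17 (all 3 tested dry seed markers) passed, and the cupin differences were as before (3.44 for PAP85).

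The germin-like genes had 0 to 1 calls with 1 array left out, the transcription factors 0 to 1, storage protein processing 1 to 2, and dry seed markers 1 to 3. Calls among transcription factors were 0 with no filter and 0 at the 60th percentile, where EEL was not tested. Storage protein processing had 1 with no filter, under quantile normalization and without the trend, and dry seed markers 1 at the 60th percentile, where OLEO3 was not tested. Small differences that changed sign, with ranges given for 1 array left out, were those of GAMMA-VPE (-0.0089 after median centring, range -0.11 to 0.12) and APA1 (0.0435 quantile, 0.0578 cyclic loess, range -0.12 to 0.11). Those of PYK10 (0.0421 quantile, range -0.33 to 0.14), RCA (-0.38 to 0.0738) and AT3G10080 (-0.10 to 0.14) were small and changed sign too. The larger difference of AT5G38910, -0.60 with all arrays, also changed sign (-1.37 to 0.16). The cause of these changes was not tested.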

Other observations

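Probe sets without a named locus were left out of the likeness to PAP85 in the report. Counting them, the 20 tested probe sets nearest to PAP85 held 15 with 1 locus and 5 without. The nearest of all was 246299_at, at a distance of 0.26, with signals of 554 and 469 in flc-3, against 69.1 and 42.5 in the wild type. The next was 248520_at, at 0.55, with 306 and 229 in flc-3, against 37.4 and 29.9 in the wild type. ICL (AT3G21720), the isocitrate lyase that turns stored lipid into sugar in seedlings, stood 13th, at 1.08, and is named after its values were seen.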
